A study of Mus musculus with 11 samples.

Results

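The genes described here encode the enzymes of phase II conjugation in the mouse liver. They comprise the UDP-glucuronosyltransferases (Ugt1, Ugt2 and Ugt3 genes), the cytosolic and mitochondrial glutathione S-transferases (Gsta, Gstk, Gstm, Gsto, Gstp, Gstt and Gstz genes) and the sulfotransferases (Sult genes). Members were all protein-coding genes whose symbol begins in one of these ways. The rule found 64 genes of the 32035 genes with a transcript in the data, of which 21 were Ugt, 22 were Gst and 21 were Sult genes. The rule uses symbols and no measured value, but the set was chosen with earlier results of these data known.

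Conjugating enzymes attach a polar group to bilirubin, bile acids, steroids, thyroid hormones, drugs and reactive lipid products, so that these can leave the hepatocyte in bile or blood. Ugt enzymes sit in the endoplasmic reticulum and transfer a sugar, mostly glucuronic acid from UDP-glucuronate. Gst enzymes transfer glutathione, and Sult enzymes transfer sulfate from PAPS, the activated form of sulfate. In mouse liver, several of these genes are known to depend on sex, feeding, the time of day and nuclear receptors that sense foreign compounds.

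Poly-A RNA was sequenced from the livers of 11 female mice of 2 conplastic strains, in which the mitochondrial genome of another strain is carried on the nuclear genome of C57BL/6J. B6-mtALR mice (C57BL/6J-mtALR/J) carry m.4738C>A in mt-Nd2, with 4 mice of 3 months and 3 of 5 months of age. B6-mtBPL mice (C57BL/6J-mtBPL/J) carry m.11902T>C in mt-Nd5, with 2 mice of 3 months and 2 of 4 months. Neither group carries the unchanged mitochondrial genome of C57BL/6J, so the strain comparison sets one substitution against the other, and no treatment was given. Mice are named below by strain and by the replicate number of the labels, so that ALR 1 to 3 were 5 months old, ALR 4 to 7 and BPL 1 and 2 were 3 months old, and BPL 3 and 4 were 4 months old. The libraries held 18145815 to 25074045 estimated counts, and the members together took 0.8729 to 1.115% of them. Summed hepatocyte markers lay between 108300 and 130300 CPM (counts scaled to a common library size and fit for comparing mice) in the 11 livers. Of 84 marker genes listed for the liver's cell types and neighbouring tissues, 4 had no count in any mouse (Lep, Prss2, Cpa1 and Pnlip, markers of fat and pancreas).

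Some members share sequence to such a degree that their reads cannot be separated with certainty. The Ugt1a genes are the extreme case. On GRCm38, 9 of them lie on the plus strand of chromosome 1 between 88055388 and 88220002, and each joins a first exon of its own to the same downstream exons. The end of the own exon is shown here in lower case, followed in capitals by the start of the shared exon at chr1:88215044-88215073, for the 6 isoforms of the family with a mean of over 10 TPM (transcript copies as a share of all, corrected for length):
Ugt1a1: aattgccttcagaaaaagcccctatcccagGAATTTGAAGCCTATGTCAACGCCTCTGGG
Ugt1a5: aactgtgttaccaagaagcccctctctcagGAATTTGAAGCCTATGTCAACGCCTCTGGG
Ugt1a9: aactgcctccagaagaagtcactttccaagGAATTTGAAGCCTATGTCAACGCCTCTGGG
Ugt1a7c: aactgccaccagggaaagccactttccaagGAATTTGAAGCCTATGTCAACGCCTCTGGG
Ugt1a6a: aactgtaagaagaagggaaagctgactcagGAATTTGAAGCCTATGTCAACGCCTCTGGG
Ugt1a6b: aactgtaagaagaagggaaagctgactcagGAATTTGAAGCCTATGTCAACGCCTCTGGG
A read from the capitals fits every one of these genes. They are told apart by reads from the own exon. In the transcript used here for each gene, the annotated sequence after the junction has 2316 bases for Ugt1a7c and 1311 for each of the others. Ugt1a6a and Ugt1a6b have the same letters on both sides. Of the 31-base words in its transcripts, Ugt1a1 shared 58.5% with another gene and Ugt1a6b shared 84.2%. Ugt1a7c shared 53.5% of its words with Ugt1a6a, so its longer end is not taken to set it apart from Ugt1a6a. Among the other members, Gstp2 shared 78.1% (mostly with Gstp1), Sult2a2 shared 74.5% (mostly with Sult2a1), Gsta1 shared 65.6% (mostly with Gsta2) and Ugt2b5 shared 56.4% (mostly with Ugt2b38), so the split of counts between these genes is uncertain. Ugt2b35 shared 4.34% and Sult2a8 shared none.

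The members were an abundant set in these livers. Their TPM, the scale on which levels of different genes can be compared, summed to 9067 to 12080 per mouse, or 1.03% of all transcripts on average. Glutathione S-transferases made up 56.2% of this sum, glucuronosyltransferases 25.7% and sulfotransferases 18.1%. A mean of 100 TPM or more was found for 26 members, a mean of 10 to under 100 for 15, a mean of 1 to under 10 for 9, and a mean under 1 for 14. The 12 members of highest level held 74.0% of the sum.

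**Figure D1:**
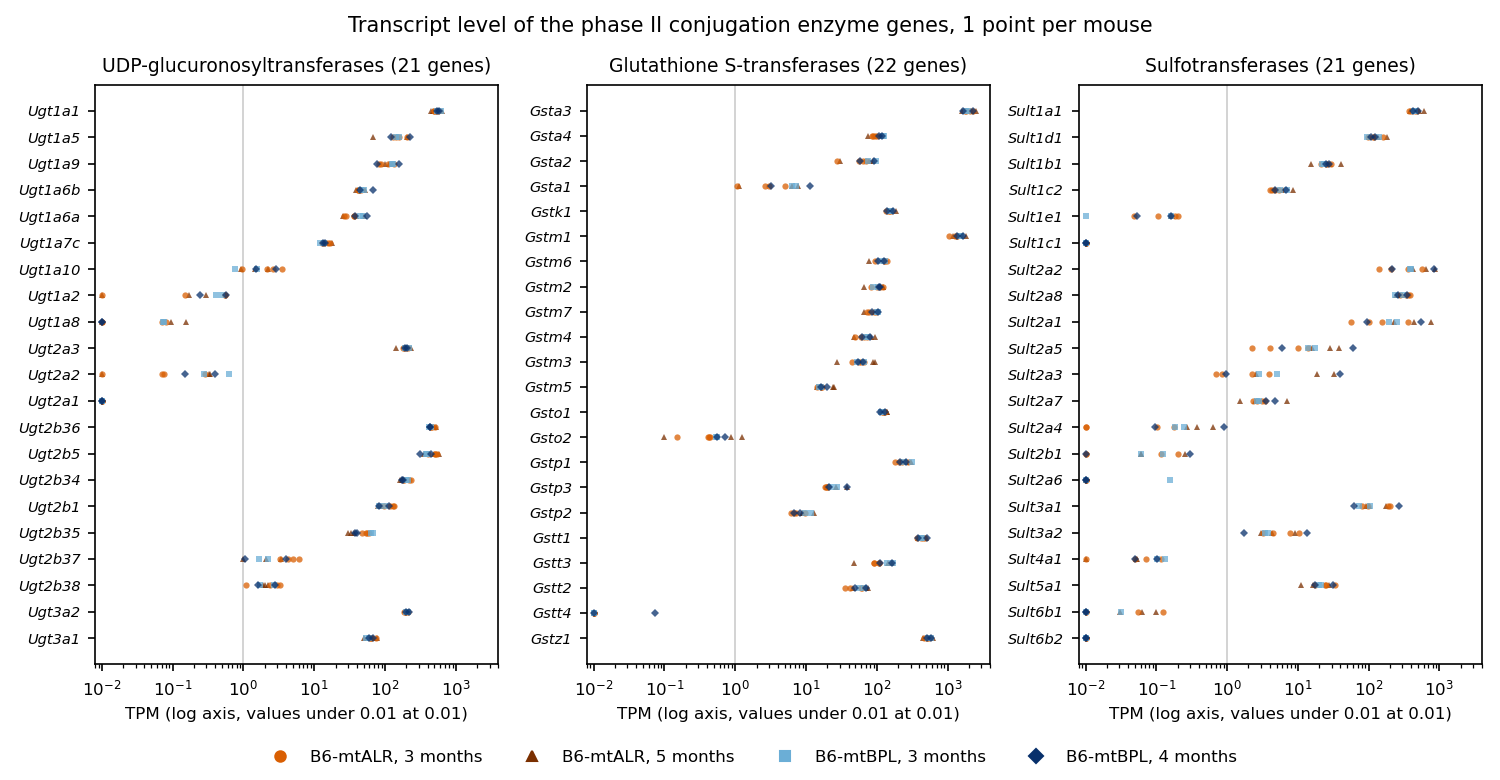
Level of the 64 members in TPM (log axis), with 1 point per mouse and symbols for strain and age; values under 0.01 are drawn at 0.01. Gsta3 and Gstm1 lie furthest to the right, and the points of Sult2a1, Sult2a3 and Sult2a5 are spread far wider than those of Ugt3a2 or Gsto1.

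Gsta3, an alpha-class enzyme of hepatocytes, had the highest mean level of all members at 1993 ± 297.5 TPM (SD, n = 11), followed by the mu-class enzyme Gstm1 at 1419 ± 213.8 TPM. Together these genes held 33.3% of the members' sum. Gstz1, which also serves tyrosine breakdown as maleylacetoacetate isomerase, stood at 534.6 ± 52.52 TPM, and the theta-class gene Gstt1 at 437.4 ± 48.48 TPM. Gstp1 of the pi class had 249.4 ± 40.79 TPM. Gstk1, whose enzyme is found in peroxisomes and mitochondria, had 156.5 ± 14.69 TPM, and Gsto1, an omega-class enzyme that acts as a thiol transferase, had 126.9 ± 9.181 TPM. In Gsta3 the lowest mouse had 1622, the median mouse 1919 and the highest 2553 TPM, and in Gsto1 these were 111.4, 126.8 and 139.4 TPM. Gstt4 was seen in a single mouse, at 0.0724 TPM.

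Among the glucuronosyltransferases, Ugt1a1, the enzyme that conjugates bilirubin, had the highest level at 538.4 ± 57.56 TPM (SD, n = 11). Within the Ugt1a family the order was Ugt1a1, Ugt1a5 (154.7 ± 44.52 TPM), Ugt1a9 (113.5 ± 24.91), Ugt1a6b (46.88 ± 7.686), Ugt1a6a (39.15 ± 9.919) and Ugt1a7c (14.47 ± 1.713). The ranges over mice of Ugt1a6a (25.9 to 55.55 TPM) and Ugt1a6b (38.47 to 66.84 TPM) overlapped, as did those of Ugt1a5 and Ugt1a9, while the lowest mouse for Ugt1a1 (452.7 TPM) was above the highest for Ugt1a5 (228.1 TPM). Ugt1a10, Ugt1a2 and Ugt1a8 had means of 1.861, 0.3121 and 0.04984 TPM. The Ugt2b genes, whose enzymes conjugate steroids and many drugs, lie on chromosome 5 between 86889767 and 87424203 on GRCm38. Ugt2b36 (465.3 ± 37.76 TPM) and Ugt2b5 (446.8 ± 84.16 TPM) had similar levels with overlapping ranges. Ugt2b34 followed at 190.7 ± 22.9 TPM and Ugt2b1 at 101.6 ± 18.83 TPM. Ugt2a3 had 197.1 ± 23.7 TPM, while Ugt2a1 was listed at 0 in all mice. Ugt3a2, a member of a family that uses UDP-sugars other than UDP-glucuronate, had 203.9 ± 10.74 TPM, and its highest mouse was 1.19 times its lowest. Its neighbour Ugt3a1 had 63.51 ± 8.134 TPM.

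Among the sulfotransferases, Sult1a1, which acts on phenols, had 458.7 ± 68.61 TPM (SD, n = 11). Sult2a2 and Sult2a1, which sulfate hydroxysteroids and bile acids, had means of 457.8 ± 245.9 and 288.4 ± 216.6 TPM, with an SD close to the mean in the latter. Sult2a8, which acts on bile acids, had 301.8 ± 51.62 TPM. Sult3a1 had 131.5 ± 67.1 TPM and Sult5a1 had 22.33 ± 6.695 TPM. Sult4a1 and Sult6b1, the highest members of their families, had means of 0.0665 and 0.0367 TPM, and Sult1e1, the oestrogen sulfotransferase, had 0.1277 TPM. Sult1c1 and Sult6b2 were listed at 0 in all 11 mice.

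For tests, genes with too few counts were left out by the same filter in each comparison. The filter kept 52 members in the strain comparison, 51 in the age comparison of B6-mtALR mice and 52 in that of B6-mtBPL mice. Under it were Gstt4, Sult1c1, Sult1e1, Sult2a4, Sult2a6, Sult2b1, Sult4a1, Sult6b1, Sult6b2, Ugt1a8, Ugt2a1 and Ugt2a2 in all comparisons, and Gsto2 in the B6-mtALR age comparison. The highest value of any mouse among these was 1.23 TPM (Gsto2).

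The spread between mice of the same strain and age was larger in the members than in most genes. The pooled SD of log2 CPM within the groups of 1 strain and age (7 degrees of freedom) had a median of 0.30 in the 52 members and 0.21 in all genes tested in the strain comparison, and 20 members lay above the 90th percentile of all genes. The most variable members were Sult2a3 (SD 1.62), Sult2a5 (1.13), Sult2a1 (1.11), Sult3a2 (0.86), Gsta1 (0.83), Sult2a2 (0.81) and Sult3a1 (0.77), all above the 98th percentile. At the other end, Ugt2b35 and Gsto1 had an SD of 0.11, and Ugt2b34, Ugt2b36 and Ugt3a2 of 0.12.

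Sult2a1, Sult2a2, Sult2a3 and Sult2a5 were high and low in the same mice. Sult2a1 was at 506.0, 331.9 and 282.2 CPM in ALR 2, BPL 3 and ALR 1, and at 36.8, 58.66 and 69.08 CPM in ALR 7, BPL 4 and ALR 4. For Sult2a3 the first 3 mice had 21.59, 23.64 and 11.81 CPM and the last 3 had 0.5627, 0.5891 and 0.4639 CPM. In each of the 4 genes these were the 3 highest and the 3 lowest of the 11 mice, so that both ends held mice of both strains. For Sult2a2 the values were 385.4, 333.5 and 277.8 CPM at the high end and 62.01, 89.58 and 92.57 CPM at the low end, and for Sult2a5 they were 26.17, 37.15 and 19.12 against 1.519, 3.829 and 2.784 CPM. The highest mouse was 50.9 times the lowest for Sult2a3, 24.5 times for Sult2a5, 13.8 times for Sult2a1 and 6.21 times for Sult2a2. As these genes share reads (27.4% of the words of Sult2a3 and 51.1% of those of Sult2a5 occur in other genes), their values are not independent. The low values of Sult2a3 rest on few reads, with 10 estimated counts in ALR 7. Sult2a8, with no shared words, ranged from 277.4 CPM in BPL 1 to 529.7 CPM in ALR 4 and did not follow this order. The grouping of mice was seen in the values and was not tested.

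The start regions of Sult2a3 and Sult2a5 are shown because these were the members with the widest range. RefSeq promoters (250 bases before to 50 after the start, GRCm38.p6) were matched for 56 of the 64 members, with 67 promoters in all. The 110 bases just upstream of the start are given 5′ to 3′ on the gene's strand. The Sult2a3 stretch is chr7:14123049-14123158 on the minus strand, and the Sult2a5 stretch is chr7:13623857-13623966 on the plus strand:
Sult2a3: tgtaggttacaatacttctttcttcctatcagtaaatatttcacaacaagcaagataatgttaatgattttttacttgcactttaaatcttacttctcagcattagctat
Sult2a5: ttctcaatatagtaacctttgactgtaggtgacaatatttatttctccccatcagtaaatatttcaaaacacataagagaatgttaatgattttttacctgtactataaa
In a global alignment, 74 of the 110 bases were identical (67.3%). TGACNNNGC, the core of the antioxidant response element, was searched on both strands like the other motifs and occurred in 3 member promoters (4.48%) against 12.4% of all promoters, and TATAAA in 15 (22.4%) against 13.6%. CACGTG, the E-box bound by clock factors, was found in 0 of the 67 member promoters and in 7.15% of all, and TTATGNAA, the D-box, in 4 (5.97%) against 3.38%. These are counts of letters in a short window, and members of 1 family share sequence, so they are not independent.

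Sult3a1, Sult3a2 and Sult5a1 showed another order of mice. Sult3a1 was highest in BPL 4 (175.8 CPM) and ALR 7 (139.1 CPM), 2 of the 3 mice at the low end of Sult2a1, and lowest in BPL 3 (39.14 CPM). Sult3a2 had its highest values in the same mice, at 6.943 and 5.739 CPM, and its lowest in BPL 3 at 0.8499 CPM. Sult5a1 had 18.43 CPM in BPL 4 and 22.51 CPM in ALR 7, and its lowest value, 6.876 CPM, in ALR 3. ALR 1, at the high end of Sult2a1, was also among the higher mice here. It had 116.5 CPM of Sult3a1, 4.902 CPM of Sult3a2 and 18.27 CPM of Sult5a1. By contrast, Sult1a1 varied between 291.6 CPM in ALR 6 and 509.5 CPM in ALR 3. Sult3a1 and Sult3a2 share 15.2 and 18.2% of their words with each other.

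**Figure D2:**
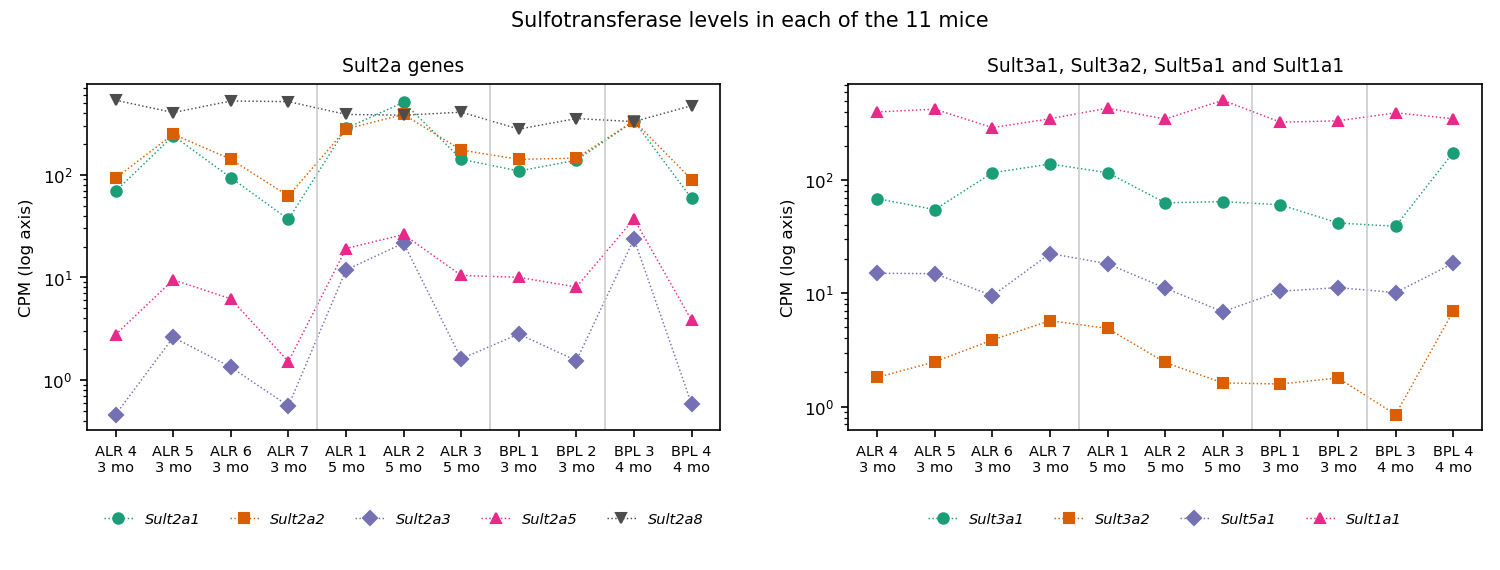
CPM (log axis) of Sult2a genes (left) and of Sult3a1, Sult3a2, Sult5a1 and Sult1a1 (right) in each of the 11 mice, ordered by strain and age; dotted lines only join points of 1 gene and vertical lines part the groups. Sult2a1, Sult2a2, Sult2a3 and Sult2a5 peak in ALR 2, ALR 1 and BPL 3, and Sult3a1 and Sult3a2 peak in BPL 4 and ALR 7.

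The comparison of the strains asked whether the livers of B6-mtALR and B6-mtBPL mice of 3 to 4 months differed in these genes. No member passed the adjusted threshold of 0.05 (0 of 52 by the quasi-likelihood test of edgeR with age and strain as terms), against 2.38% of the 13380 genes tested. An unadjusted p under 0.05 was found for 9 members, and all 9 had a positive log2 fold change, that is a higher value in B6-mtALR mice. As a share, 17.3% of the members passed the unadjusted threshold, below the 21.3% of all genes. The single direction did not hold once transcript length was taken into account, as given below. limma-trend called 0 members as well. DESeq2 called 5 of the 52 members, all higher in B6-mtALR mice (Ugt2b37, Sult2a8, Ugt2b1, Ugt3a1 and Ugt2b5), where it called 7.9% of all genes. Since all B6-mtALR mice in this comparison were 3 months old, the strain term sets them against BPL 1 and 2, and BPL 3 and 4 count for the age term and the spread.

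Ugt genes made up 6 of the 9 members with an unadjusted p under 0.05. Ugt2b1 had 252.6, 190.2, 230.3 and 225.4 CPM in the 4 B6-mtALR mice and 135.2, 159.7, 145.2 and 207.2 CPM in BPL 1 to 4. Only BPL 4 reached into the range of the B6-mtALR mice, and the log2 fold change was 0.61 ± 0.17 (SE, edgeR adjusted p = 0.0863). Ugt2b5, with 692.5, 542.5, 610.1 and 722.4 against 443.2, 430.0, 381.0 and 575.7 CPM, had a log2 fold change of 0.55 ± 0.18 (edgeR adjusted p = 0.117), and again BPL 4 was the B6-mtBPL mouse inside the other range. Ugt2b36, the most abundant of the family, had 566.0, 472.3, 454.1 and 479.1 CPM against 373.0, 403.3, 410.4 and 437.9 CPM. All B6-mtALR mice were above all B6-mtBPL mice for Ugt2b36, with a log2 fold change of 0.34 ± 0.12 (edgeR adjusted p = 0.147).

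Ugt2b37, a gene of low level that shares 34.4% of its words, mostly with Ugt2b5, had the largest difference of the named Ugt genes. It stood at 4.555, 5.987, 7.677 and 6.921 CPM in B6-mtALR and at 2.547, 1.909, 1.336 and 5.133 CPM in B6-mtBPL mice, with overlap through ALR 4 and BPL 4. Its log2 fold change was 1.49 ± 0.45 (edgeR adjusted p = 0.102). Leaving out BPL 3 or BPL 4, or keeping the mice of 3 months alone, turned this into a call, with adjusted p of 0.0376, 0.039 and 0.0387. Ugt3a1 had 91.77, 95.3, 76.21 and 109.0 against 64.59, 66.8, 76.13 and 93.03 CPM, a log2 fold change of 0.50 ± 0.15 (edgeR adjusted p = 0.103). Without ALR 6, the lowest of the B6-mtALR mice for this gene, its adjusted p was 0.0444. Ugt1a7c had 29.18 to 42.43 CPM against 24.49 to 31.35 CPM and a log2 fold change of 0.48 ± 0.15 (edgeR adjusted p = 0.117). Ugt1a1, by contrast, had means of 832.6 and 826.5 CPM and a log2 fold change of 0.05 ± 0.13.

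Of the sulfotransferases, Sult2a8 had 529.7, 401.8, 520.4 and 513.0 CPM in the B6-mtALR mice and 277.4, 351.3, 328.0 and 469.0 CPM in the B6-mtBPL mice. The ranges overlapped through ALR 5 and BPL 4, and the log2 fold change was 0.64 ± 0.18 (edgeR adjusted p = 0.0879). Sult1b1, whose enzyme acts on thyroid hormones, had 21 to 31.45 CPM against 19.56 to 26.75 CPM, with a log2 fold change of 0.37 ± 0.15 (edgeR adjusted p = 0.202). The variable Sult2a genes gave log2 fold changes with large errors, of -0.17 ± 0.72 for Sult2a1, -0.07 ± 0.55 for Sult2a2, -0.79 ± 1.10 for Sult2a3 and -0.84 ± 0.78 for Sult2a5. With such errors, a difference of the size seen for Ugt2b1 was not detectable in these genes.

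Of the glutathione S-transferases, Gsto1 was the single one with an unadjusted p under 0.05. It had 95.44, 101.6, 89.53 and 104.5 CPM against 77.4, 82.23, 79.57 and 97.16 CPM, overlapping through BPL 4, with a log2 fold change of 0.29 ± 0.12 (edgeR adjusted p = 0.202). Gsta3 had 1642, 1478, 1145 and 1327 against 1082, 1121, 1415 and 1101 CPM and a log2 fold change of 0.34 ± 0.16 (edgeR adjusted p = 0.259), with BPL 3 among the higher mice. Gstm1, the second most abundant member, had a log2 fold change of -0.02 ± 0.15. The log2 fold changes of Gstt1, Gstz1, Gstk1 and Gstp1 were 0.24, 0.10, 0.14 and -0.10, each with an adjusted p of 0.423 or more by edgeR.

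With all 11 mice and an age term, the log2 fold changes of Ugt2b1, Sult2a8, Ugt2b37 and Ugt3a1 were 0.32, 0.35, 0.86 and 0.30, and those of Ugt2b36 and Ugt2b5 were 0.31 and 0.47. The smallest values over all alternatives, all of them with the replicate number as a block, were 0.18 for Ugt2b1, 0.22 for Sult2a8, 0.24 for Ugt2b37 and 0.25 for Ugt3a1. The fits with a block had no age term. Replicate numbers above 4 occur in B6-mtALR mice only, so the strain value then sets ALR 1 to 4 against BPL 1 to 4. Of these, ALR 1 to 3 were 5 months old.

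Separate ranges of the strains were rare. All 4 B6-mtALR mice were above all 4 B6-mtBPL mice for 2 members, Ugt2b36 and Ugt2b34, and below them for 1, Ugt1a6a, while 5.71 and 6.43% of all genes showed this. Ugt1a6a had 48.56 to 64.19 CPM in B6-mtALR and 65.44 to 88.84 CPM in B6-mtBPL mice (log2 fold change -0.32 ± 0.16, edgeR adjusted p = 0.282). Ugt1a6b shares 83.9% of its words with Ugt1a6a, so the split of counts between them is uncertain. It overlapped between the strains, with a log2 fold change of 0.05 ± 0.14 (edgeR adjusted p = 0.872). With 4 against 4 mice, full separation always gives the smallest p of an exact permutation test (0.0286, two-sided), which takes no account of age. This p therefore adds nothing to the separation of Ugt2b36, Ugt2b34 and Ugt1a6a. Ugt2b34 had a log2 fold change of 0.24 ± 0.13 (edgeR adjusted p = 0.326).

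The median log2 fold change of the members was 0.15, and that of all genes tested was 0.00. By class it was 0.27 for the 18 Ugt genes, -0.02 for the 21 Gst genes and 0.28 for the 13 Sult genes tested, with positive values for 14, 10 and 8 of them. The Ugt2b family stood at 0.35, with 6 of 7 genes positive. Transcript length moved with the strain in these libraries. The slope of log2 CPM on log10 transcript length lay between -0.50 and 0.07 in the B6-mtALR mice and between 0.01 and 0.40 in the B6-mtBPL mice, so short transcripts tended to be higher in the former, and the members were short (median 1340 bases against 2388 for all genes tested). With the length trend of each library removed, the members' median was 0.03, that of the Ugt genes 0.26, that of the Gst genes -0.18 and that of the Sult genes 0.06. Gsto1 then had 0.12, Gsta3 0.15 and Ugt2b36 0.23, while Ugt2b1 (0.64), Sult2a8 (0.60), Ugt2b37 (1.44) and Ugt2b5 (0.50) changed little. Gsta4, Gstp2 and Gstt3 had -0.42, -0.57 and -0.42 in this fit (edgeR unadjusted p = 0.00214, 0.0278 and 0.0307), and Ugt2b34 had 0.32 (unadjusted p = 0.0283). Ugt2b36, Sult1b1 and Gsto1 no longer had an unadjusted p under 0.05 (0.081, 0.0958 and 0.317 by edgeR).

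**Figure D3:**
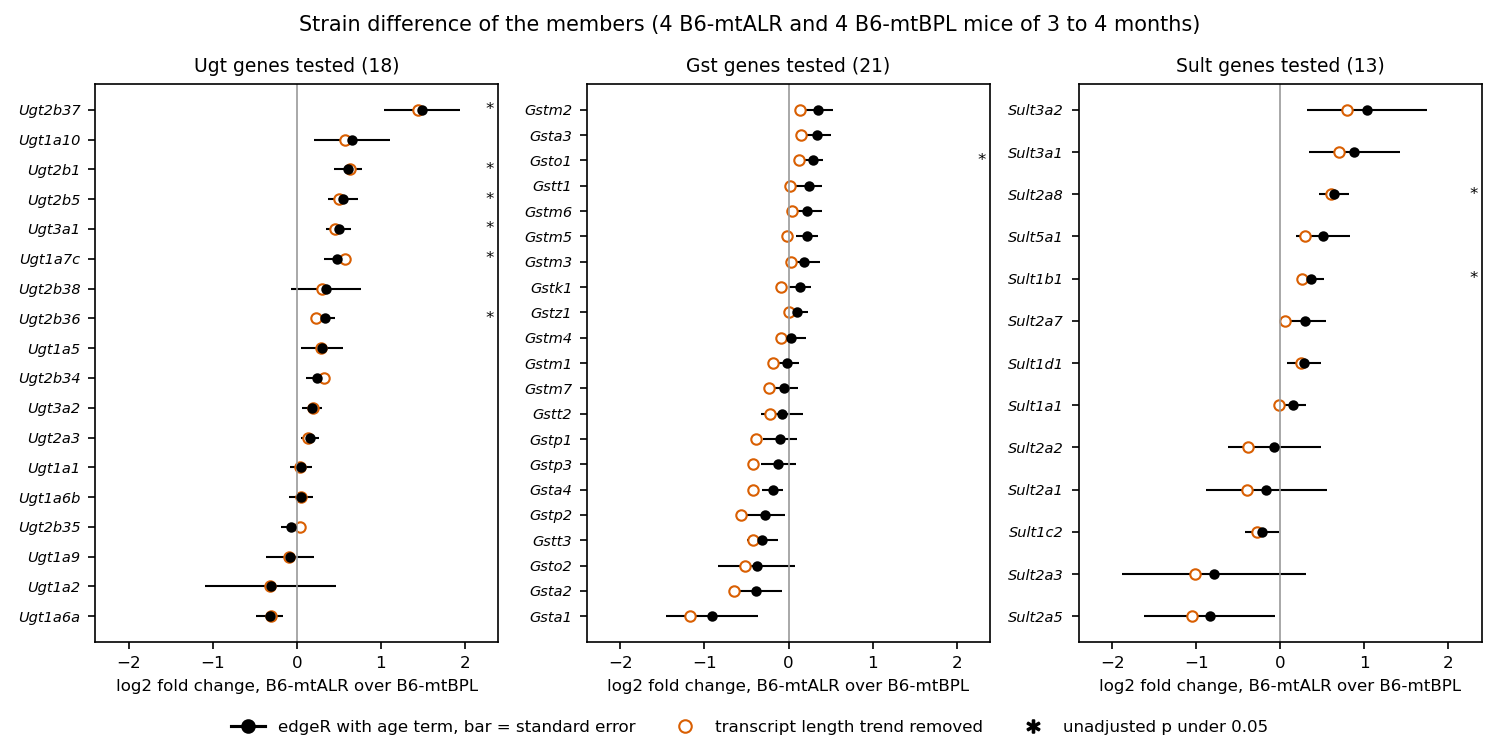
Log2 fold change of B6-mtALR over B6-mtBPL mice for the tested Ugt, Gst and Sult genes (black points, bars are standard errors from edgeR) and the same with the transcript length trend removed (open points); stars mark an unadjusted p under 0.05. Gst genes and short Sult genes shift to the left when the length trend is removed, and most Ugt genes stay in place.

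Some markers of other cell types also differed between these livers. Endothelial markers summed to 218.2 to 244.9 CPM in the 4 B6-mtALR mice and to 274.8 to 350.8 CPM in the 4 B6-mtBPL mice, and 3 of 7 (Vwf, Stab2 and Kdr) were lower in B6-mtALR mice by edgeR. Stellate cell and fibroblast markers summed to 259.8 to 321.0 against 319.4 to 440.6 CPM, with 2 of 8 called lower (Reln and Pdgfrb). The median log2 fold change was -0.43 for the endothelial and -0.82 for the stellate cell list. Of the endothelial markers, Clec4g (59.38 to 81.38 against 66.96 to 69.81 CPM), Lyve1 and Bmp2 overlapped between the strains. Of the stellate cell list, Dcn (126.6 to 163.0 against 146.8 to 164.0 CPM), Des, Lrat, Col1a1, Col3a1 and Pdgfrb overlapped. Marker values with the transcript length trend removed are not given here. The hepatocyte markers summed to 113000 to 129900 against 110900 to 130300 CPM, and 1 of 8 tested (Cps1) was called lower. The gut gene Fabp2, listed among pancreas and gut markers, was called higher, and no gene of the cholangiocyte, Kupffer cell, lymphocyte, neutrophil, erythroid or adipocyte lists nor of the pericentral and periportal lists was called by edgeR. DESeq2 called 1 gene of these lists, a pericentral marker. The part of these differences in the members' values was not tested. In bulk tissue, fewer cells of a type cannot be told apart from less RNA per cell.

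The age comparison in B6-mtALR mice set 3 livers of 5 months against 4 of 3 months. Ugt2b35 was lower at 5 months and was the single member of 51 to pass the adjusted threshold (edgeR), where 0.793% of the 13375 genes tested passed. It had 83.19, 77.63 and 87.23 CPM at 5 months and 152.6, 120.9, 129.1 and 137.0 CPM at 3 months. The groups did not overlap, and the log2 fold change was -0.70 ± 0.13 (SE, edgeR adjusted p = 0.0371; exact permutation p = 0.0286, two-sided, the smallest this design allows). In B6-mtBPL mice, Ugt2b35 stood at 85.8 and 97.16 CPM at 4 months and at 138.3 and 144.3 CPM at 3 months. The log2 fold change was -0.62 ± 0.12 (edgeR adjusted p = 0.202), and with 2 mice against 2 the smallest exact permutation p is 0.333. All 5 livers of 4 and 5 months were thus below all 6 livers of 3 months.

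DESeq2, limma-trend, the other scalings, the other filters and the removal of the length trend also called Ugt2b35 in B6-mtALR mice, with adjusted p from 7.16e-05 to 0.038. Leaving out any 1 of the 7 mice ended the call, with log2 fold changes of -0.75 to -0.64 and adjusted p of 0.0576 to 0.153. The adjusted p was 0.118, 0.0777 and 0.105 without ALR 1, 2 and 3, and 0.153, 0.0576, 0.0618 and 0.0745 without ALR 4, 5, 6 and 7. DESeq2 called 3 members here against 2.27% of all genes, adding Sult2a3 (higher at 5 months, adjusted p = 0.0461) and Ugt2b1 (lower, adjusted p = 0.0392). In the B6-mtBPL mice DESeq2 called Ugt2b35 alone (adjusted p = 0.0075), against 1.37% of all genes.

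**Figure D4:**
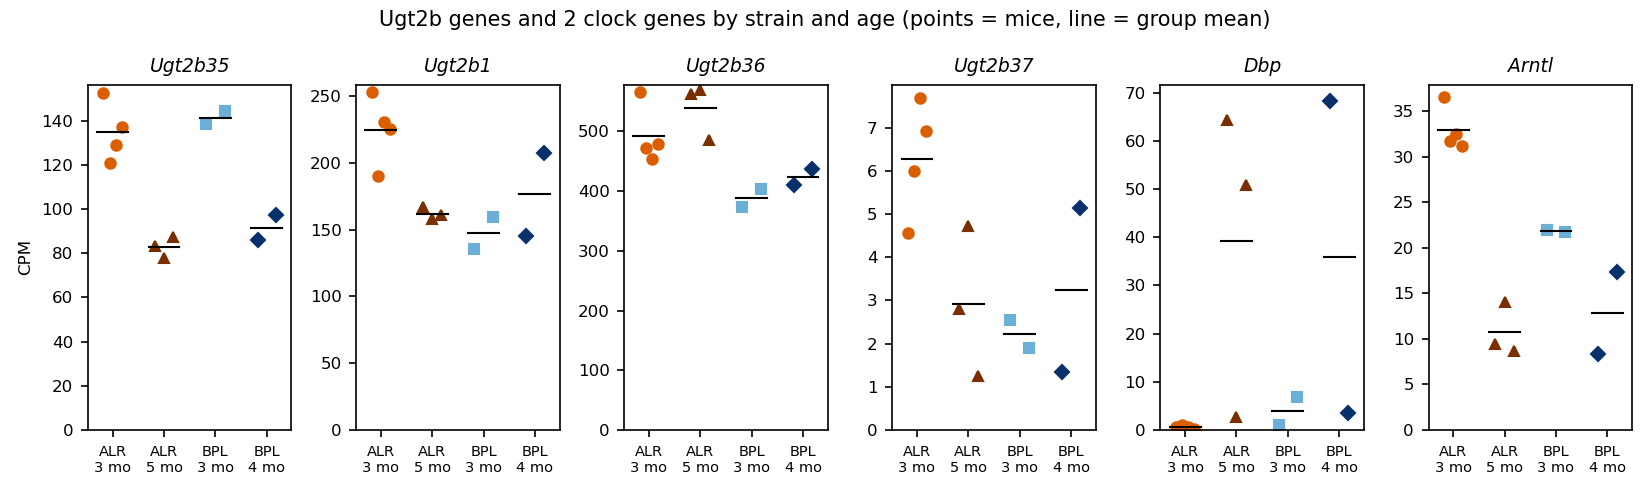
CPM of 4 Ugt2b genes and of the clock genes Dbp and Arntl by strain and age, with 1 point per mouse and a line at the group mean (linear axes from 0). Ugt2b35 lies at 77.63 to 97.16 CPM in the livers of 4 and 5 months and at 120.9 to 152.6 CPM in those of 3 months; Dbp is high in ALR 1, ALR 3 and BPL 3 only.

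Genes of the circadian clock moved with age in the same livers. Of 16 clock genes tested in B6-mtALR mice, 6 were called higher at 5 months (Per1, Per3, Nr1d2, Tef, Ciart and Dbp) and 2 lower (Arntl and Npas2). In B6-mtBPL mice, 1 was called (Per1, higher at 4 months). The level of Dbp, a clock output factor that peaks at one time of day, was 64.26, 2.728 and 50.79 CPM in ALR 1, 2 and 3 and 0.2813 to 1.064 CPM in ALR 4 to 7. In B6-mtBPL mice it was 0.9647 and 6.76 CPM at 3 months and 68.32 and 3.492 CPM at 4 months. Ugt2b35 was at 77.63 CPM in ALR 2 and 97.16 CPM in BPL 4, which had little Dbp, and at 83.19, 87.23 and 85.8 CPM in ALR 1, ALR 3 and BPL 3, which had much. Arntl, which peaks at another time of day, was at 8.629 to 14.06 CPM against 31.17 to 36.52 CPM in the older and younger B6-mtALR mice, and at 8.337 and 17.38 against 21.75 and 21.92 CPM in the B6-mtBPL mice, and so parted the ages as Ugt2b35 did. The part of this in the age results was not tested, and age and time of sampling cannot be told apart, as the labels give no time of sampling.

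Between the ages in B6-mtALR mice, 10 of the 51 members had an unadjusted p under 0.05, 6 higher and 4 lower at 5 months, a share of 19.6% against 10.1% of all genes. Besides Ugt2b35, the lower ones were Ugt2b1, Ugt2b37 and Sult2a8. Ugt2b1 had 167.1, 157.7 and 160.7 CPM at 5 months, below all 4 mice of 3 months given above, with a log2 fold change of -0.47 ± 0.13 (edgeR adjusted p = 0.193). Ugt2b37 had 2.807, 4.716 and 1.258 CPM (log2 fold change -1.09 ± 0.36, edgeR adjusted p = 0.291), and Sult2a8 had 385.4, 378.5 and 405.2 CPM (-0.33 ± 0.14, edgeR adjusted p = 0.437). The B6-mtALR mice of 3 months also had higher means of Ugt2b1, Ugt2b37 and Sult2a8 than the B6-mtBPL mice. At 5 months the B6-mtALR means were 161.8, 2.927 and 389.7 CPM, beside 161.8, 2.731 and 356.4 CPM in all B6-mtBPL mice. The strain and age comparisons use the same 4 B6-mtALR mice of 3 months and are therefore not independent. In the B6-mtBPL mice, which share none of these libraries, the log2 fold changes from 3 to 4 months were 0.26 ± 0.20 for Ugt2b1, 0.54 ± 0.58 for Ugt2b37 and 0.35 ± 0.21 for Sult2a8. All 3 values rest on BPL 4, since without it Ugt2b1 had -0.02, Ugt2b37 had -0.74 and Sult2a8 had 0.06.

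The members with higher values at 5 months were led by the Sult2a genes. Sult2a3 had a log2 fold change of 3.21 ± 0.74 (edgeR adjusted p = 0.101), with 11.81, 21.59 and 1.618 CPM at 5 months against 0.4639, 2.617, 1.341 and 0.5627 CPM at 3 months. ALR 3 was below ALR 5, and without ALR 3 the log2 fold change was 3.73 with an adjusted p of 0.027. Without the low-count filter it was called too (adjusted p = 0.0269). Sult2a5 was the single member whose 5-month mice (19.12, 26.17 and 10.47 CPM) were all above the 3-month mice (1.519 to 9.49 CPM), with a log2 fold change of 1.89 ± 0.49 (edgeR adjusted p = 0.156). The log2 fold change was 1.5 ± 0.56 for Sult2a1 and 1.04 ± 0.41 for Sult2a2 (edgeR adjusted p = 0.368 and 0.396). Gstp3 and Sult1c2 had 0.51 ± 0.20 and 0.48 ± 0.20 (edgeR adjusted p = 0.412 and 0.455). Gstp3 rested on ALR 1 (15.02 CPM, against 8.138 and 10.52 CPM in ALR 2 and 3) and had 0.23 without it, and Sult1c2 had 0.28 without ALR 3. Of all genes, 4.96% had all 5-month mice above all 3-month mice and 4.67% had them below, and among the members this held for 1 and for 3 (Ugt2b35, Ugt2b1 and Ugt2b34).

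The class medians in B6-mtALR mice were -0.01 for the 18 Ugt genes, 0.25 for the 20 Gst genes and 0.23 for the 13 Sult genes, beside 0.01 for all genes tested. Positive values were found for 18 of the 20 Gst genes, 1 of which (Gstp3) had an unadjusted p under 0.05. For the Sult2 genes the median was 1.27, with 5 of 6 positive, and for the Ugt2b genes it was -0.27, with 6 of 7 negative. Removing the length trend gave -0.04, 0.22 and 0.21 for the 3 classes.

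In the B6-mtBPL mice no member of 52 was called by edgeR, beside 0.117% of the 13623 genes tested, and limma-trend called 0 too. An unadjusted p under 0.05 was found for 5 members (9.62%, against 10.7% of all genes). These were Ugt2b35, described above, and, with higher values at 4 months, Sult1b1 (26.75 and 25.5 against 19.56 and 21.47 CPM), Ugt3a1 (76.13 and 93.03 against 64.59 and 66.8 CPM), Sult2a7 and Gstm2. The median log2 fold change was 0.17 for the members and 0.01 for all genes, and 44 of 52 members (84.6%) were positive, against 50.9% of all genes. The slope on transcript length was 0.12 and 0.18 in BPL 1 and 2 and -0.21 and -0.09 in BPL 3 and 4. With the length trend removed, the members' median was 0.10, with 40 positive. The class medians were then 0.14 for Ugt, 0.05 for Gst and 0.39 for Sult genes. Before this removal, all 13 Sult genes tested had a positive value, with a median of 0.57. The value rests on BPL 3 for Sult2a1, Sult2a2, Sult2a3 and Sult2a5 and on BPL 4 for Sult2a8, Sult3a1, Sult3a2 and Sult5a1. Sult2a1 was at 331.9 CPM in BPL 3 and 58.66 CPM in BPL 4, on either side of the 3-month mice (108.5 and 138.1 CPM). Leaving out BPL 4 gave 6 called members, including Sult2a1 with a log2 fold change of 1.43 (edgeR adjusted p = 0.00437). Leaving out BPL 3 also gave 6, among them Sult2a1 at -1.07 (edgeR adjusted p = 0.0159) and Sult3a1 at 1.78 (edgeR adjusted p = 0.00151). In both cases the lone 4-month mouse was assumed to vary like the 3-month mice.

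**Figure D5:**
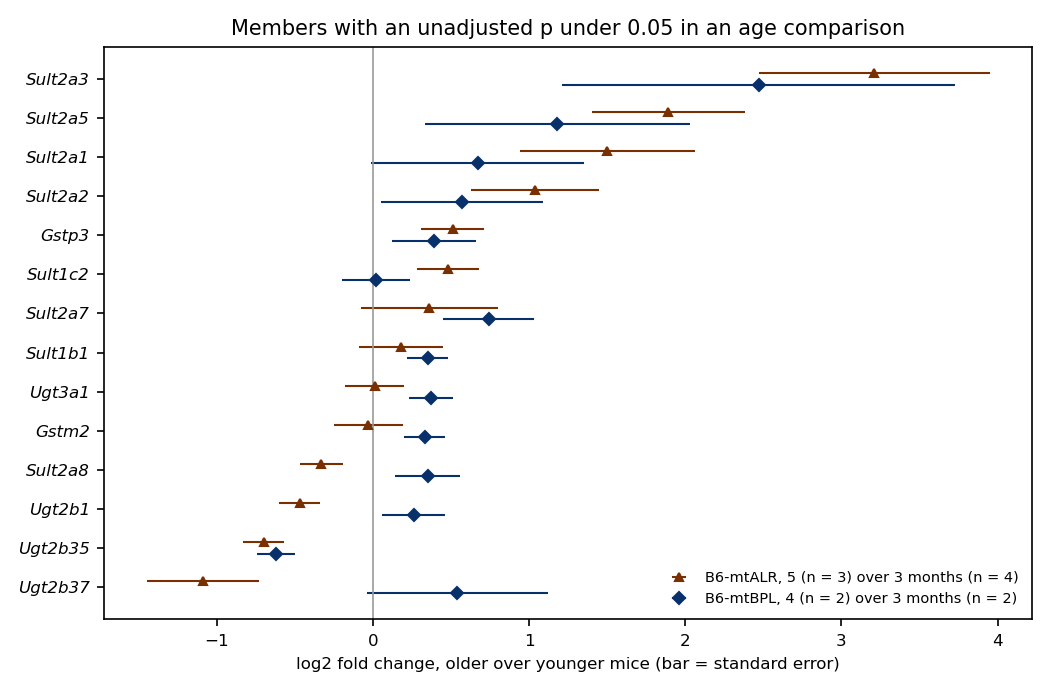
Log2 fold change of older over younger mice for the members with an unadjusted p under 0.05 in either age comparison, for B6-mtALR (triangles) and B6-mtBPL mice (diamonds), with bars for standard errors from edgeR. Ugt2b35 lies at -0.70 and -0.62; Ugt2b1, Ugt2b37 and Sult2a8 lie below 0 in B6-mtALR and above 0 in B6-mtBPL mice, where, without BPL 4, Ugt2b1 and Ugt2b37 turn negative and Sult2a8 is at 0.06.

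The differences between the ages were not of the same length in both strains (3 to 5 and 3 to 4 months), so the values of the strains were not tested against each other. Some markers of liver zones differed between the ages as well. Pericentral markers summed to 9248 to 10850 CPM at 5 months and 6766 to 8532 CPM at 3 months in B6-mtALR mice, and periportal markers to 3952 to 5993 against 2969 to 3683 CPM, with Sds and Pck1 of the periportal list called higher by edgeR. The pericentral sum was carried by Cyp2e1 (5982 to 7008 against 4116 to 5161 CPM), and the median log2 fold change of the 9 pericentral markers was -0.12, with an unadjusted p under 0.05 for 1 higher and 2 lower (Lgr5 and Axin2). The median of the 9 periportal markers was -0.02 in B6-mtALR and -0.19 in B6-mtBPL mice. In B6-mtBPL mice the pericentral and periportal sums were 8987 to 10480 against 7872 to 8419 CPM and 4546 to 5734 against 3185 to 3452 CPM. Cidec, the one adipocyte marker tested, was called higher at 5 months in B6-mtALR mice by edgeR, and beside it, Sds and Pck1 edgeR called no gene of the marker lists in either age comparison. With limma-trend no marker was called with age. DESeq2 called Cidec in B6-mtALR mice too, and it called 2 pericentral, 2 periportal and 1 endothelial marker with age in B6-mtALR mice and 1, 2 and 1 in B6-mtBPL mice. The part of these markers in the members' values was not tested.

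Enzymes and carriers that serve the conjugation reactions were looked at by lists. None of the 7 genes for UDP-glucuronate supply, of the 11 tested for PAPS supply, of the 15 for glutathione synthesis and recycling, of the 5 to 7 other glutathione transferases or of the 14 other conjugating and hydrolysing enzymes was called by edgeR or limma-trend in any comparison. DESeq2 called 3, 1 and 2 genes of the glutathione list in the strain, B6-mtALR age and B6-mtBPL age comparisons, and 1 gene each of the UDP-glucuronate, other glutathione transferase and other conjugating lists between the strains. The values nearest to the threshold were those of Chac2, which degrades glutathione, with a log2 fold change of 0.67 between the strains (edgeR adjusted p = 0.0541), and of Chac1, its relative, with 1.99 between 4 and 3 months in B6-mtBPL mice (edgeR adjusted p = 0.0697). Slc35d2, a carrier of nucleotide sugars, had 0.44 between the strains (edgeR adjusted p = 0.0878), Mgst1, the microsomal glutathione transferase, had 0.51 (adjusted p = 0.073), Papss2, which makes PAPS, had -0.39 (adjusted p = 0.203), and Glyat, the glycine conjugating enzyme, had 0.31 (adjusted p = 0.118). In the glutathione list the unadjusted p was under 0.05 for 4 genes between the strains, 4 with age in B6-mtALR and 2 with age in B6-mtBPL mice. In the other lists this held for 0 to 3 genes.

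Of the 13 transporters, Abcc3, which exports glucuronides from hepatocytes to blood, was called lower in B6-mtALR mice. It had 172.7, 185.7, 150.9 and 199.2 CPM against 268.3, 297.9, 279.6 and 265.2 CPM, with no overlap and a log2 fold change of -0.68 ± 0.12 (edgeR adjusted p = 0.032). The median of the transporters was -0.30, and 6 of the 13 had an unadjusted p under 0.05, all with negative values. Of all genes tested, 21.3% had such a p between the strains, 1363 with positive and 1491 with negative values. Transporter values with the transcript length trend removed are not given here. Abcc3 had 216.7, 287.2 and 300.5 CPM at 5 months in B6-mtALR mice, above the 3-month mice (log2 fold change 0.60 ± 0.15, edgeR adjusted p = 0.142). No other transporter was called by edgeR or limma-trend, and none with age, while DESeq2 called 3 between the strains and 1 with age in B6-mtALR mice.

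Of the 15 transcription factors that act on phase II genes, none was called by edgeR or limma-trend in any comparison, with an unadjusted p under 0.05 for 5, 2 and 4 of them. DESeq2 called 4 between the strains, 2 with age in B6-mtALR and 0 with age in B6-mtBPL mice. Nr1i2, the PXR gene, had 0.73 with age in B6-mtALR mice (edgeR adjusted p = 0.0883), with 95.41 to 111.9 CPM at 5 months and 52.76 to 78.83 CPM at 3 months. Of the 10 NRF2 targets outside the members, Osgin1 was called lower with age in both strains (-1.90 and -2.62, edgeR adjusted p = 0.0237 and 0.0382), and none was called between the strains. Nqo1, a widely used NRF2 target, was at 7.908 to 15.1 CPM in the 11 mice. Among the targets of AhR, CAR, PXR and PPARa and the fasting genes, Pdk4 was called higher in B6-mtALR mice (2.05 ± 0.23, edgeR adjusted p = 0.0119) and lower at 5 months (-1.63 ± 0.29, edgeR adjusted p = 0.0353), and Pck1 was called higher at 5 months (1.41 ± 0.27, edgeR adjusted p = 0.0498). Pdk4, which fasting induces, was at 33.35 to 53.6 CPM in the B6-mtALR mice of 3 months and at 8.584 to 20.35 CPM in the other 7 mice. The 3 highest values of Ugt2b1 were in ALR 4, 6 and 7. ALR 5, with 33.35 CPM of Pdk4, had 190.2 CPM of Ugt2b1, less than BPL 4 (11.11 CPM of Pdk4 and 207.2 CPM of Ugt2b1). The part of Pdk4 and the other fasting genes in the members' values was not tested. Npas2 was the one clock gene called between the strains by edgeR (1.12 ± 0.19, edgeR adjusted p = 0.0302), and DESeq2 called 4.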

How the data were processed

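RNA-seq of 11 livers was analysed. The authors pseudo-aligned single-end reads to mouse transcripts (mm10; kallisto 0.44.0 per the submitters' processing notes). The deposited estimated counts per transcript are not normalised, and the deposited TPM values were scaled by kallisto for effective length and depth. The transcript release is not given in the sources used here. Here, 98.6% of the 96626 transcripts, with at least 99.6% of the counts of each mouse, matched GENCODE M21. Counts and TPM were summed per gene, and counts were rounded. TPM served to compare genes and CPM (TMM-scaled) to compare mice.

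Groups came from the strain, age and replicate labels. A protocol text shared by all samples mentions different strains from the strain fields, which were used here. Whether mice were littermates or were sampled together is not stated, so p-values measure the spread between these mice. No batch or date is given. Of 27 pairs of libraries of 1 strain, all differed by more than sampling noise (chi-square of 20.7 or more per degree of freedom). Depth varied from 18145815 to 25074045 counts, and fits carry the counting error.

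Genes were kept by filterByExpr (minimum count 10, total 15). edgeR 4.0.16 (quasi-likelihood test, R 4.3.3) was run on the 8 mice of 3 to 4 months with terms for age and strain, and on each strain alone with a term for age. p-values were adjusted over all genes (Benjamini-Hochberg, threshold 0.05). Exact permutation tests used log2(CPM + 0.5). Alternatives were DESeq2 1.42.0, limma 3.58.1 (limma-trend), RLE and upper-quartile scaling, no or a stricter filter (minimum count 50), removal of each library's trend on transcript length (lowess, span 0.3), other sets of mice and terms, a replicate block, mitochondrial genes left out and each mouse left out. The fits were tested on simulated data.

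Named members were those passing the adjusted threshold (at most 15 per comparison), the 12 of highest mean TPM, the 10 of smallest strain p and the highest of each subfamily. Sult2a3, Sult2a5, Sult3a2, Gsta1 and other members named outside this rule were chosen after their values were seen. The members, 11 pathway lists and 12 marker lists were chosen with earlier results of these data known. One transcription factor and its motif are not reported here. Promoters were taken from RefSeq (GRCm38.p6) and exon junctions from GENCODE M21 (GRCm38).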

Additional observations from a re-analysis of the deposited data

Results flagged for a closer look

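Of 30 members looked at in the 4 B6-mtALR mice of 3 months and in the 4 B6-mtBPL mice (60 groups), 7 groups held a mouse far from the other 3. Chance gives about 1 in 20 independent groups, and this rate cannot be set against the 7, since some members were taken up after their values were seen, members share reads and the B6-mtBPL groups hold 2 ages. Each stood out by the gap to its nearest neighbour relative to the group's range (Dixon's test at the 95% level). BPL 3 was the highest B6-mtBPL mouse for 4 of the 7. It had 1415 CPM of Gsta3 (other mice 1082 to 1121), 92.52 CPM of Gstk1 (77.48 to 79.72), 302.4 CPM of Gstt1 (233.6 to 236.5) and 23.64 CPM of Sult2a3 (0.5891 to 2.817). This is also the B6-mtBPL mouse with the high Dbp value (68.32 CPM). BPL 4 was highest for Sult3a1 with 175.8 CPM (others 39.14 to 60.66) and for Sult5a1 with 18.43 CPM (others 10.16 to 11.25). ALR 5 was lowest of the B6-mtALR mice of 3 months for Sult2a8 with 401.8 CPM (others 513.0 to 529.7). No cause was tested for these values.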

How the results depend on the processing

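The number of called members changed with the test and with single mice. In the strain comparison it was 0, and 5 with DESeq2, 1 with the mice of 3 months alone and 0 to 1 when 1 mouse was left out (1 without ALR 6, BPL 3 or BPL 4). It was 0 under all other alternatives. In the B6-mtALR age comparison it was 1, and 3 with DESeq2, 2 without the filter and 0 to 1 when 1 mouse was left out, where the 1 member called without ALR 3 was Sult2a3 in place of Ugt2b35. In the B6-mtBPL age comparison it was 0, and 1 with DESeq2 and 0 to 6 when 1 mouse was left out. The cause of these differences between tests was not tested. With the replicate number as a block over all 11 mice, 0 members were called, with or without the length trend, and 0 of all genes. The block fits had no age term, and their strain value sets ALR 1 to 4, mostly of 5 months, against BPL 1 to 4. Same-numbered mice of the strains did not deviate together (correlations of -0.217, -0.138, 0.114 and -0.108), and 1 of the 4 numbers correlated best with its own number, so they share only a number. The members' median strain difference was 0.17 with the block, 0.05 with the block and the length trend removed, and 0.06 without BPL 1. Of 710 values of single members under an alternative, 656 kept their direction and their side of the threshold, 7 were no longer called, 17 became called and 30 changed direction. In the strain comparison the direction changed for members with small or poorly determined differences. Without the length trend Gstk1 had -0.09. With all 11 mice and an age term Gstp1 had 0.03, and without an age term Gstm1, Gstp1, Sult2a1 and Sult2a2 had 0.03, 0.07, 0.30 and 0.15. With the block Gstm1, Gstp1, Sult2a1, Sult2a2, Sult2a3 and Sult2a5 had 0.13, 0.14, 0.60, 0.39, 0.84 and 0.13, and with the block and the length trend removed Sult2a1, Sult2a2 and Sult2a3 had 0.41, 0.14 and 0.61. When 1 mouse was left out, the range was -0.04 to 0.13 for Ugt1a1, -0.07 to 0.09 for Gstm1, -0.27 to 0.10 for Gstp1, -0.89 to 0.12 for Sult2a1 and -0.53 to 0.17 for Sult2a2. In the B6-mtBPL age comparison it was -0.02 to 0.50 for Ugt2b1, -0.74 to 1.21 for Ugt2b37, -1.07 to 1.43 for Sult2a1 and -0.39 to 1.78 for Sult3a1. The cause was not tested. Depth limits Sult2a3, Gsta1 and Ugt2b37, with 10, 10.2 and 28.3 estimated counts in their lowest mice.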
